A study of Homo sapiens with 4 samples.

Results

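Notch signalling was followed through 10 genes in nuclei of enteric ganglioids: the receptors NOTCH1, NOTCH2 and NOTCH3, the ligands DLL1, DLL3 and JAG1, and the targets HES1, HES5, HEY1 and HEY2. The genes were chosen by symbol, and all 10 were present among the 36601 features of each matrix. Ganglioids of this kind are suspended clusters in which precursors of the gut's nervous system mature to neurons, and here they were grown from the human embryonic stem cell line H9. Nuclei of 2 control samples were sequenced beside those of 2 samples that had received PP121, a small molecule that blocks a range of receptor tyrosine kinases, at 2 µM from day 15 to day 20. Apart from PP121 both groups were stage 1 ganglioids of the same line, grown in suspension, and each group held differentiation replicates 1 and 2. In the deposited annotation replicate 1 of either group is dated day 42 and replicate 2 day 38, so day and differentiation replicate cannot be told apart. All values below are for the 14812 nuclei that the authors assigned to a class, of 25306 deposited. These nuclei held between 23348045 and 34123759 unique molecular identifiers (UMIs) per sample, with medians of 6289 to 7071 per nucleus.

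Notch receptors sit on one cell and their Delta and Jagged ligands on its neighbour. Binding leads to cleavage of the receptor, whose released intracellular part joins the DNA-binding protein RBPJ and switches on target genes, among them the HES and HEY repressors. In the developing nervous system cells with active Notch stay progenitors, whereas cells set on differentiation display Delta ligands and become neurons. Outside the nervous system JAG1, NOTCH3 and the HEY factors are better known from mural and smooth muscle cells.

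RBPJ recognises the core TGGGAA, and the target promoters are shown because their RBPJ sites are what makes HES1 and HES5 textbook readouts of the pathway. RefSeq windows from 250 bases before to 50 bases after the transcription start (GRCh38.p14) were found for 7 of the 10 genes; DLL1, DLL3 and HEY1 were not matched. TGGGAA, searched on both strands, was present in 24.03% of all 35116 promoter windows and in 3 of the 7, those of HES1, HES5 and HEY2. Capitals mark TGGGAA or its reverse complement TTCCCA. The windows lie at chr3:194135898-194136197 on the plus strand (HES1), chr1:2530214-2530513 on the minus strand (HES5) and chr6:125749382-125749681 on the plus strand (HEY2).
HES1: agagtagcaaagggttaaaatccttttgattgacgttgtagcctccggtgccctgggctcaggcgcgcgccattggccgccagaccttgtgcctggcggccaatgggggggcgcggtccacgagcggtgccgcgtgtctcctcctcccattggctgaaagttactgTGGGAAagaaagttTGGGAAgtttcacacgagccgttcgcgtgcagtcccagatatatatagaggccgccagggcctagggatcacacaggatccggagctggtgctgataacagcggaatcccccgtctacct
HES5: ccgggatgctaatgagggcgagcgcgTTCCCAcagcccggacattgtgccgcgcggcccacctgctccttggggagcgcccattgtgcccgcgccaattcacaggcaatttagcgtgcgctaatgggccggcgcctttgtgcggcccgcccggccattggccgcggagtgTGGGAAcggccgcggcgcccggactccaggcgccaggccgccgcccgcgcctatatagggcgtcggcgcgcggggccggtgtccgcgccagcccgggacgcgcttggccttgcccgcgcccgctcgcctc
HEY2: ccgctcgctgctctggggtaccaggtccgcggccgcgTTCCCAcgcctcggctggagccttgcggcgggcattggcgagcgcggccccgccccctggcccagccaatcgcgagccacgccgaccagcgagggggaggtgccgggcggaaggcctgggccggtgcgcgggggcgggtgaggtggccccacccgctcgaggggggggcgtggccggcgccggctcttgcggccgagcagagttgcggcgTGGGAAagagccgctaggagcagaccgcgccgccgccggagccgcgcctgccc
In HES1 the matches start at -84 and -70 from the transcription start with 8 bases between them. In HES5 they start at -224 and -80, and in HEY2 at -213 and -3. These are letter matches and not measured binding.

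The deposited annotation held 6 classes: 6557 Enteric Neuron, 2892 Progenitor 1, 3800 Progenitor 2, 903 Mesenchymal, 92 Epithelial and 568 Unknown nuclei. Levels are given as CPM, counts per 1e6, taken over all UMIs of that class in that sample, and per-sample values run in the order control replicates 1 and 2, then PP121 replicates 1 and 2. Classes came from clusters of these same nuclei, and NOTCH1 is on the list of genes by which the study named its progenitors, so levels between classes are described without a test. Counting of introns and strand is not stated, so reads of NOTCH1, DLL1, JAG1, HES5 and HEY2 cannot be told from those of genes that overlap them on the opposite strand (FAM120B at DLL1, antisense RNAs at the others). The labels were checked against marker lists. The 11 neuronal markers summed to 7822 to 10785 CPM in Enteric Neuron and at most 3025 CPM in any other class, and the 13 mesenchymal markers to 4873 to 5514 CPM in Mesenchymal against at most 579 elsewhere. The 6 progenitor markers summed to 1829 to 2326 CPM in Progenitor 2, but only to 604 to 876 CPM in Progenitor 1 and to as much as 1793 to 2310 CPM in Unknown. Mesenchymal (542 to 1134 CPM) and Epithelial (670 to 820 CPM) overlapped Progenitor 1, so this list does not set Progenitor 1 apart from them. The 3 epithelial markers reached only 30.9 to 59.8 CPM in Epithelial, above the 16.4 CPM or less of every other class but Mesenchymal, which overlapped it at 14.1 to 104 CPM. With so low a level the name is weakly marked and is used here as a label alone.

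The receptors were lowest in neurons. NOTCH1 stood at 14.8, 18.4, 17.9 and 20.8 CPM in Enteric Neuron, at 63.2, 58.2, 45.3 and 74.9 CPM in Progenitor 1 and at 89.9, 108, 91.6 and 84.8 CPM in Progenitor 2. The 3 ranges did not overlap, and Progenitor 2 was 4.08 to 6.09 times the neurons of its own sample. Mesenchymal nuclei overlapped Progenitor 1 in NOTCH1, with 30.2 to 64.5 CPM. NOTCH2 had another order: neurons at 12.9, 19.7, 12.8 and 15.8 CPM, Progenitor 2 at 66.5, 79.0, 66.6 and 76.0 CPM, and Mesenchymal at 135, 216, 128 and 183 CPM. Progenitor 1 (67.5, 107, 56.8 and 104 CPM) spread over the whole range of Progenitor 2, and Unknown (137 to 240 CPM) overlapped Mesenchymal. NOTCH2 carries near-identical human copies. NOTCH2NLC was listed at 22.6 to 41.1 CPM in the progenitors and NOTCH2NLB at 0.502 CPM or less, so how counts were divided between NOTCH2 and its copies is uncertain. NOTCH3 was again lowest in neurons, at 8.18, 13.9, 9.45 and 14.5 CPM, and stood at 32.8, 52.9, 30.3 and 51.2 CPM in Progenitor 1 and 46.4, 71.1, 52.1 and 69.0 CPM in Progenitor 2, ranges that overlap. Mesenchymal nuclei reached 61.1 to 98.1 CPM.

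The ligands split by cell type. DLL1, the Delta ligand of neural precursors, was similar in all 3 neural classes. It was at 33.1, 38.7, 33.4 and 46.9 CPM in neurons, 38.7, 42.1, 35.3 and 46.6 CPM in Progenitor 1 and 47.2, 50.9, 42.3 and 47.3 CPM in Progenitor 2, and these ranges overlap. In Mesenchymal DLL1 was at 10.1 CPM or less, with 0 UMIs in PP121 replicate 1. DLL3, a divergent Delta protein that acts inside its own cell rather than on a neighbour, was the only member with its highest range in neurons, at 13.3, 17.9, 15.7 and 29.2 CPM. Outside the 92 Epithelial nuclei (3 UMIs in all) no other class passed 8.26 CPM (Progenitor 1, PP121 replicate 1). JAG1 went the other way and lay at 24.9 to 50.4 CPM in neurons, 38.9 to 97.2 CPM in Progenitor 1, 61.3 to 99.9 CPM in Progenitor 2 and 91.3 to 123 CPM in Mesenchymal. Each of these JAG1 ranges overlapped its neighbour.

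HES1 was at 6.49, 8.21, 7.78 and 7.54 CPM in neurons, 42.7, 34.1, 58.4 and 28.9 CPM in Progenitor 1, 42.7, 32.4, 61.8 and 53.9 CPM in Progenitor 2 and 179, 147, 94.2 and 140 CPM in Mesenchymal. The progenitor classes overlapped in HES1 and both were 3.83 to 7.94 times the neurons of their own sample. HES5 was higher in both progenitor classes than in neurons and Mesenchymal, but in Unknown (26.2 to 54.1 CPM) and Epithelial (15.5 to 60.9 CPM) it overlapped Progenitor 1. It was at 8.23, 9.11, 11.2 and 12.4 CPM in neurons, at 41.2, 36.6, 51.4 and 43.3 CPM in Progenitor 1 and at 66.0, 77.9, 94.6 and 83.9 CPM in Progenitor 2, while Mesenchymal held 6.08 to 11.2 CPM, which overlaps the neurons. Within each sample Progenitor 2 was 1.60 to 2.13 times Progenitor 1. The HEY genes were low in neural nuclei. HEY1 stayed at 7.58 CPM or less in neurons and both progenitors and stood at 28.0, 16.0, 40.4 and 13.8 CPM in Mesenchymal. HEY2 was a mesenchymal transcript, with 118, 46.7, 121 and 31.1 CPM there and at most 1.51 CPM in any neural class. Both replicate 1 samples were above both replicate 2 samples in mesenchymal HEY2, but they hold only 40 and 33 mesenchymal nuclei against 408 and 422. HEYL, a further HEY repressor, had the same distribution, at 9.79 to 50.5 CPM in Mesenchymal and at most 2.27 CPM in neurons and progenitors.

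**Figure D1:**
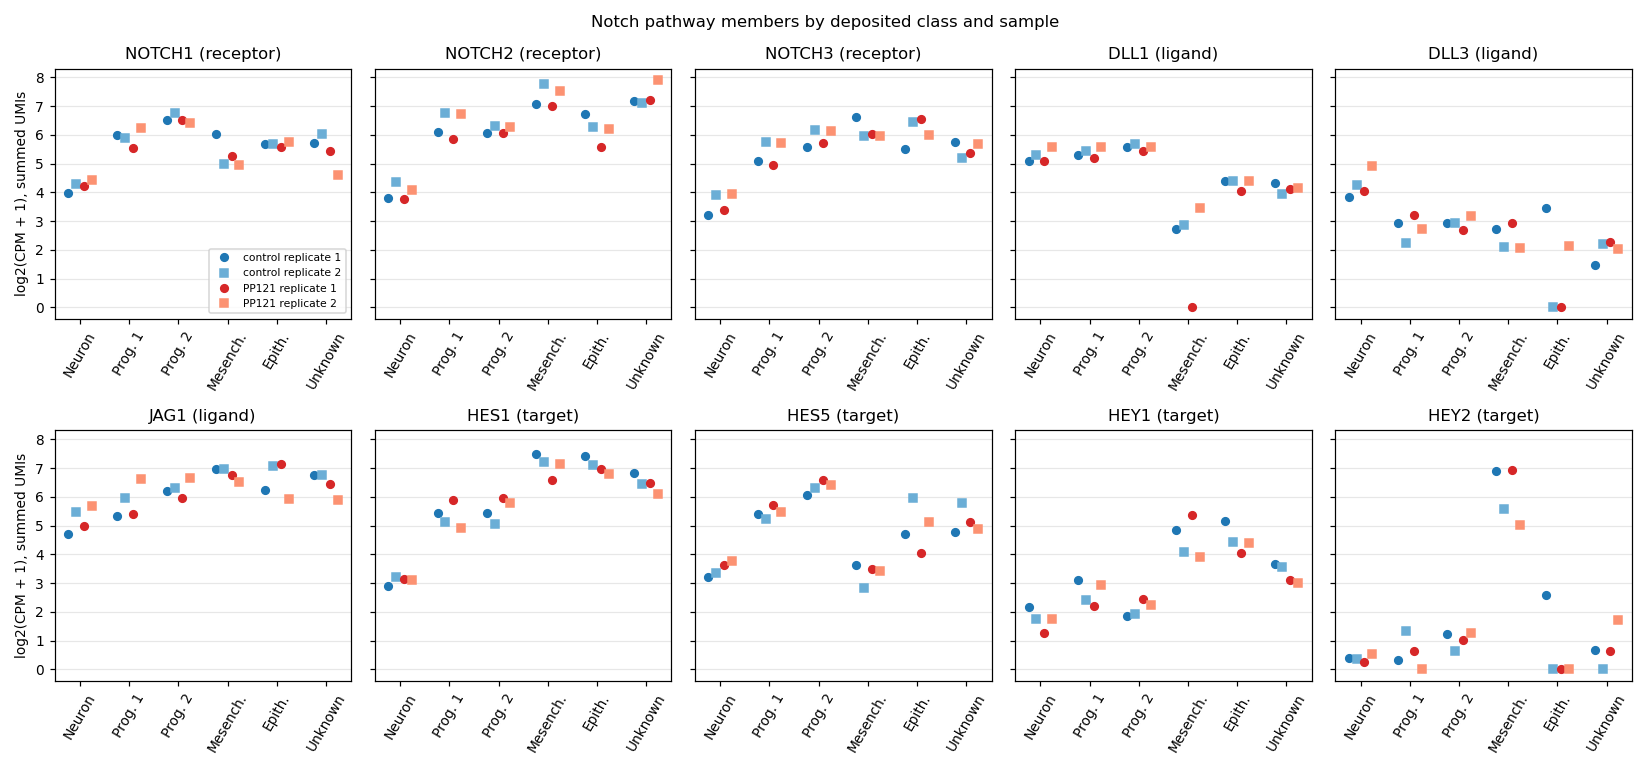
Levels of the 10 genes, log2(CPM + 1) on the vertical axis, in the 6 deposited classes (horizontal axis); each point is 1 sample, blue shades for control and red shades for PP121, circles for replicate 1 and squares for replicate 2. NOTCH1 and HES5 are highest in Progenitor 2 (84.8 to 108 and 66.0 to 94.6 CPM), DLL3 in neurons, and HEY2 is at 31.1 CPM or more in Mesenchymal and at most 1.51 CPM in the neural classes.

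Shares of nuclei with a UMI gave the same picture at equal depth. Each nucleus was thinned to 2000 UMIs, since class medians ran from 5268.5 (Progenitor 1) to 8375.5 UMIs (Unknown). Among neurons, 132 of 6536 held a HES5 UMI (2.02%, exact 95% interval 1.69 to 2.39), against 219 of 2857 Progenitor 1 (7.67%, 6.72 to 8.70) and 510 of 3776 Progenitor 2 nuclei (13.5%, 12.4 to 14.6). In Mesenchymal the share was 2.12% (1.28 to 3.28), most of its nuclei being from replicate 2. The share in neurons was no higher than that (median depths before thinning were 7480 UMIs in neurons and 7601 in Mesenchymal). The study found its mesenchymal population similar to a neural crest cluster, so Mesenchymal is not known to lack HES5. Whether the share in neurons is expression or background therefore cannot be told. NOTCH1 was in 3.11% of neurons, 10.9% of Progenitor 1 and 17.8% of Progenitor 2 nuclei. For DLL3 the shares were 3.18% (2.77 to 3.64) in neurons, 1.44% (1.03 to 1.94) in Progenitor 1, 1.11% (0.803 to 1.501) in Progenitor 2 and 1.00% (0.459 to 1.89) in Mesenchymal. The intervals of both progenitor classes overlap that of Mesenchymal in DLL3. DLL1 was in 6.49% of neurons and 8.45% of Progenitor 2 nuclei against 1.45% (0.773 to 2.46) of Mesenchymal. HES1 was in 23.7% of Mesenchymal nuclei, 7.21% of Progenitor 1, 7.60% of Progenitor 2 and 1.32% of neurons. HEY2 was in 61 of 898 Mesenchymal nuclei (6.79%, 5.24 to 8.64) and in 3 of 6536 neurons (0.0459%). None of the 91 Epithelial nuclei held a HEY2 UMI, which allows a share of up to 3.97%. Intervals cover counting error only.

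Genes that followed the members most closely over classes and samples were found by the correlation of log2(CPM + 1) over 23 class-by-sample sums of at least 20 nuclei, among 11662 genes. For NOTCH1 these were QKI (r = 0.89), BARD1 and TRPS1. NOTCH3 was closest to TCF7L1 (r = 0.94), YAP1 and STK3, and NOTCH2 to MDFIC (r = 0.96), GNG12 and PTPN14. DLL1 went with SLC35F1 (r = 0.93), HOXA3 and EZH2, and DLL3 with the synaptic vesicle gene SYP (r = 0.88), CELF6 and ST8SIA4. HES5 lay closest to SDK2 (r = 0.90), FGFR3 and the intermediate filament gene NES, and HES1 to EMP2 (r = 0.95), ZFP36L1 and CCN1. JAG1 was nearest to MAP3K20 (r = 0.92), HEY1 to ANXA2 (r = 0.92) and HEY2 to SLC16A12 (r = 0.97). The points share libraries, and the correlations are a description.

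Cell cycle phase was the first comparison, made within progenitors and within each sample on the phase that the authors assigned. Phase was scored on cell cycle genes, which include no Notch gene, and the cycling markers MKI67, TOP2A, CDK1 and CCNB1 summed to 623 to 745 CPM in G2M of Progenitor 2 against 10.9 to 14.7 CPM in G1. In Progenitor 1 the G2M sum was lower, at 101 to 235 CPM, and overlapped that of Enteric Neuron nuclei assigned to G2M (130 to 319 CPM), so the phase is less sharply marked there. Such markers overlap the genes that phase is scored on and are no independent check. HES5 was higher in G2M in both progenitor classes. In Progenitor 1 HES5 went from 31.4, 30.5, 47.7 and 37.5 CPM in G1 to 58.0, 42.0001, 81.1 and 56.6 CPM in G2M, a rise in 4 of 4 samples (log2 fold change 0.71, SE 0.17, adjusted p = 0.0087). In Progenitor 2 it went from 54.5, 81.4, 75.1 and 77.8 CPM to 122, 63.3, 136 and 100.4 CPM, which is a rise in 3 of 4 samples with control replicate 2 lower (0.59, SE 0.15, adjusted p = 0.013). HES1 and NOTCH2 were higher in G2M of Progenitor 2 in 4 of 4 samples. HES1 went from 42.4, 26.4, 50.1 and 47.5 CPM to 55.7, 34.5, 82.0 and 61.6 CPM (0.49, SE 0.14, adjusted p = 0.022). NOTCH2 rose from 65.6, 74.6, 57.0 and 73.3 CPM to 85.5, 111, 81.4 and 93.5 CPM (0.45, SE 0.11, adjusted p = 0.0077). In Progenitor 1 neither passed the test: the log2 fold change was 0.20 (SE 0.23) for HES1 and 0.02 (SE 0.13) for NOTCH2. Whether the effects differ between the classes was not tested. Neurons were not tested by phase, but the rise was seen there too. Neuronal NOTCH2 went from 12.4, 15.4, 10.6 and 12.7 CPM in G1 to 17.6, 32.4, 32.1 and 30.7 CPM in G2M. Neuronal HES5 went from 7.66, 6.59, 10.8 and 10.1 CPM to 17.1, 31.5, 16.0 and 13.2 CPM. Neuronal HES1 went from 5.55, 8.12, 5.69 and 8.55 CPM to 13.7, 15.3, 16.7 and 7.02 CPM, lower in PP121 replicate 2.

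Of the 9 members that passed the filter on low counts, 1 was called in Progenitor 1 and 3 in Progenitor 2, where 8.41% and 9.54% of all genes tested were called. HEY2 did not pass the filter in any fit within a class. The members without a call lay between -0.57 (DLL3) and 0.91 (HEY1) in Progenitor 1 and between -0.73 (DLL3) and 0.48 (HEY1) in Progenitor 2. Both ends are genes of few UMIs. Few other genes of the pathway were called, a smaller share than over all genes in Progenitor 2. NRARP, a feedback inhibitor that Notch induces, was higher in G2M of Progenitor 2 (0.57, adjusted p = 0.032), as was NEURL1B, an E3 ligase that acts on the ligands (1.39, adjusted p = 3.38e-06). Among the 42 genes tested of 50 in the pathway lists (other receptors and ligands, other HES and HEY genes, the transcription complex, cleavage, glycosylation and turnover), these 2 rose and 0 fell. Their median log2 fold change was -0.01, beside -0.02 over all genes tested. Of the 8 neurogenic genes tested, STMN2 (-0.61) and DCX (-0.43), both of young neurons, were lower in G2M. In Progenitor 1, 3 of 36 pathway genes rose (NCSTN, ADAM17 and FBXW7) and 2 fell, the RBPJ co-activators MAML2 (-0.51) and MAML3 (-0.42).

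Against G1, S phase gave no call among the members. Over all genes 0.538% were called in Progenitor 1 and 4.21% in Progenitor 2. NOTCH1 and JAG1 in Progenitor 1 had the smallest p-values, with NOTCH1 at 53.1, 69.4, 61.1 and 107.6 CPM in G1 and 59.3, 49.2, 34.9 and 60.03 CPM in S (-0.53, SE 0.17, adjusted p = 0.19) and JAG1 at -0.45 (SE 0.16, adjusted p = 0.23). With classes rebuilt from joint clusters both were called (-0.50 and -0.56, adjusted p of 0.048 and 0.044). NOTCH1 was lower in 3 of 4 samples. The other 7 members tested in Progenitor 1 lay between -0.25 and 0.05, and the 9 in Progenitor 2 between -0.17 and 0.31.

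**Figure D2:**
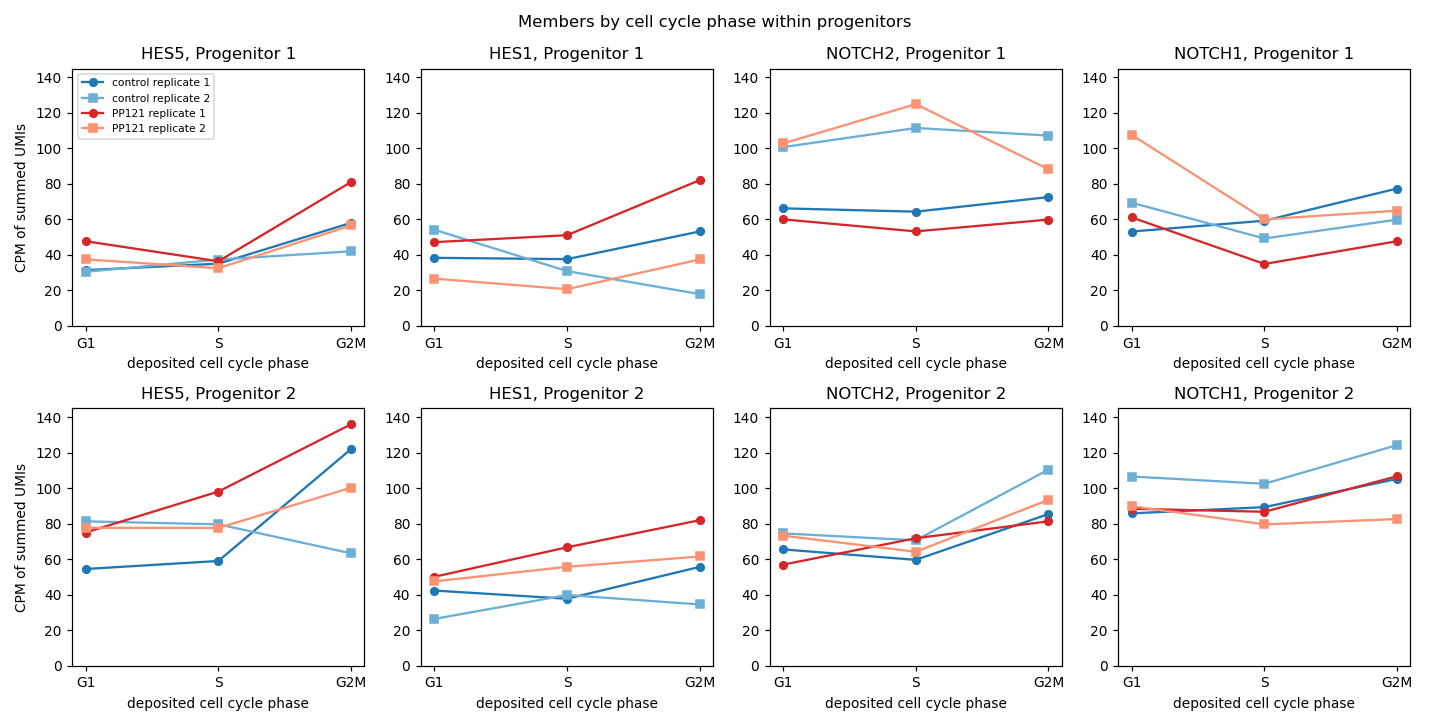
CPM (vertical axis, from 0) of HES5, HES1, NOTCH2 and NOTCH1 in the G1, S and G2M nuclei of Progenitor 1 (upper row) and Progenitor 2 (lower row); each line is 1 sample. HES5 ends higher in G2M than in G1 in all samples of Progenitor 1 and in all but control replicate 2 of Progenitor 2, whereas NOTCH2 is higher in G2M in all 4 samples only in the lower row.

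The phase results lean on the class borders and on single samples. With classes rebuilt from joint clusters of all 4 samples, made without the members and the listed pathway genes, NOTCH2 kept its call in Progenitor 2 (0.52, adjusted p = 0.00073). HES5 did not in Progenitor 1 (0.43, adjusted p = 0.15) or Progenitor 2 (0.42, adjusted p = 0.066), nor did HES1 (0.46, adjusted p = 0.054). Without control replicate 1 or without PP121 replicate 1 HES5 lost its call in both classes (adjusted p of 0.067 and 0.067 in Progenitor 1 and 0.18 and 0.17 in Progenitor 2), and HES1 without PP121 replicate 1 (adjusted p = 0.24), though each stayed higher in G2M. HES1 was also not called by DESeq2 (adjusted p = 0.064). NRARP lost its call with DESeq2 (adjusted p = 0.11) and without control replicate 1 (0.46, adjusted p = 0.22), control replicate 2 (adjusted p = 0.087) or PP121 replicate 1 (adjusted p = 0.21). The calls of STMN2 and DCX in Progenitor 2 and of NCSTN and ADAM17 in Progenitor 1 were likewise lost without either control sample, while FBXW7 lost its call without control replicate 1 or PP121 replicate 1, and MAML2 and MAML3 without PP121 replicate 1.

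PP121 was compared with control within each class, which addresses whether Notch genes differed at the time of sampling. No sample was taken closer to the exposure, so earlier differences are not known. Without a block 0 of 21243 genes were called in neurons, 0 of 16083 in Progenitor 1 and 0 of 18885 in Progenitor 2 (0% in each; 2549, 621 and 1774 genes had an unadjusted p under 0.05, and DESeq2 called 87, 1 and 96). No member was called. Because same-numbered replicates share a dated day, a second fit took the replicate as a block, with a single residual degree of freedom, and called 14.8%, 3.69% and 6.71% of genes.

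In that blocked fit 1 of the 9 members tested was called in Progenitor 2 (HES1), 1 of 9 in neurons (DLL3) and none in Progenitor 1. Beside 6.71%, 14.8% and 3.69% of all genes, these counts are too small to set the members apart from genes at large. HES1 in Progenitor 2 was at 42.7 and 32.4 CPM in control and at 61.8 and 53.9 CPM with PP121. The groups did not overlap and PP121 was higher on both days (log2 fold change 0.65, SE 0.14, adjusted p = 0.00096 by edgeR). Without the block HES1 was at 0.65 (SE 0.16, adjusted p = 0.34). HES1 was picked by a call on the same values, so the separation adds no support. How often groups separate in this way over all genes was not counted. HES5 in Progenitor 2 lay the same way, at 66.0 and 77.9 against 94.6 and 83.9 CPM, and was not called (0.35, SE 0.13, adjusted p = 0.11). In the same blocked fit HES5 was at 0.49 in neurons (SE 0.18, adjusted p = 0.074) and at 0.26 in Progenitor 1 (SE 0.21, adjusted p = 0.71). Neither was called, and the rise in HES5 was not confined to Progenitor 2. DLL3 in neurons was at 13.3 and 17.9 CPM in control and 15.7 and 29.2 CPM with PP121, higher on both days in groups that overlap (0.50, SE 0.15, adjusted p = 0.026; without the block 0.56, SE 0.33, adjusted p = 0.53). In Progenitor 1 no member was called in either fit, and log2 fold changes without the block lay between -0.29 (HEY1) and 0.44 (JAG1). The receptors showed little movement: over the 3 classes NOTCH1, NOTCH2 and NOTCH3 lay between -0.15 and 0.26 without the block, with standard errors of 0.15 to 0.39.

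The match between deposited and joint classes differed between control and PP121 samples, for a reason that was not tested. Of the nuclei deposited as neurons, 12.7% and 15.3% of the control samples but 3.15% and 2.46% of the PP121 samples fell into the joint cluster of Progenitor 1. Of those deposited as Progenitor 2, 74.5% and 80.1% in control and 86.4% and 90.2% with PP121 stayed in joint Progenitor 2. The shares that fell into joint neurons were 13.9% and 7.32% against 7.23% and 5.61%. With joint classes and the block, neither call held: HES1 in Progenitor 2 was at 0.29 (SE 0.14, adjusted p = 0.28) and DLL3 in neurons at 0.40 (SE 0.15, adjusted p = 0.17). In Progenitor 1 so rebuilt, HES1 stood at 0.72 (SE 0.19, adjusted p = 0.19) and HES5 at 0.68 (SE 0.20, adjusted p = 0.28), which were not called. The share of Progenitor 2 nuclei in G2M was 14.1% and 15.7% in control and 20.3% and 25.3% with PP121 (in Progenitor 1 the groups overlapped, at 33.3% and 27.6% against 29.5% and 39.1%), the phase in which HES1 and HES5 were higher, and its part in the HES1 difference was not tested. Mesenchymal markers, whose class is high in HES1, summed to 281 and 365 CPM in control and 348 and 423 CPM in PP121 Progenitor 2, with 2 of 12 tested higher and 1 lower in the blocked fit, and their part was not tested either. In neurons 4 of 13 were higher with PP121, among them TWIST1 (1.91) and PRRX1 (1.65), and their part in the DLL3 difference was not tested. Over all genes the blocked fit called 14.8% in neurons and 6.71% in Progenitor 2. Within G1 alone HES1 was at 42.4 and 26.4 CPM in control and 50.1 and 47.5 CPM with PP121.

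Around the members, the blocked fit in neurons called 6 pathway genes higher and 5 lower of 46 tested, where 14.8% of all genes were called. Among those higher were RBPJ itself (0.34), its co-activators MAML2 (0.46) and MAML3 (0.74), the fringe enzymes LFNG (0.70) and MFNG (1.495) that modify receptors, and DNER (0.38), a neuronal transmembrane protein listed at 232 to 411 CPM in neurons. Lower were NOTCH4 (-0.78), DLL4 (-1.44), HES7 (-0.81), and, of the receptor cleavage machinery, ADAM17 (-0.34) and APH1A (-0.89). The median of the 46 was -0.01, equal to that of all genes (-0.01). Of 11 neurogenic genes tested, 3 were higher (NEUROD4 at 0.74, STMN2 at 0.40 and ELAVL3 at 0.37) and 1 lower (SOX4 at -0.44). In Progenitor 2, 2 pathway genes were higher (DTX4, MAML3) and 3 lower (NOTCH4, DLK1, ADAM17) of 45, and in Progenitor 1 there were 0 of 43. Over all genes 6.71% were called in Progenitor 2 and 3.69% in Progenitor 1. A fit over all 3 classes tested whether the effect of PP121 in each progenitor class differs from that in neurons. It called 0 of 20664 genes for either progenitor class (0%), with 952 and 523 genes at an unadjusted p under 0.05 and 0 called by DESeq2, and the smallest member p was 0.067 (HEY1, Progenitor 2 against neurons).

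NOTCH2, NOTCH3 and JAG1 were called between replicates and not between treatments, a difference that was itself not tested. Replicate 2 (day 38) was set against replicate 1 (day 42) over both treatments. Without a block 0% of genes were called in each class, with 1574, 3106 and 1219 genes at an unadjusted p under 0.05 in neurons, Progenitor 1 and Progenitor 2 and 59, 436 and 60 called by DESeq2. With treatment as a block 9.49%, 14.6% and 4.81% were called. Of the 9 members tested, 5 were then higher in replicate 2 in neurons, 3 in Progenitor 1 and 2 in Progenitor 2, and none was lower.

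JAG1 was higher in replicate 2 in all 3 classes. In Progenitor 1 it stood at 38.9 and 41.3 CPM in replicate 1 and 61.2 and 97.2 CPM in replicate 2 of control and PP121 (log2 fold change 1.11, SE 0.20, adjusted p = 2.33e-06). In neurons the values were 24.9 and 30.4 against 43.1 and 50.4 CPM (0.82, SE 0.12, adjusted p = 2.43e-05), and in Progenitor 2 they were 73.3 and 61.3 against 77.7 and 99.9 CPM (0.45, SE 0.14, adjusted p = 0.033). NOTCH3 followed, with 32.8 and 30.3 against 52.9 and 51.2 CPM in Progenitor 1 (0.88, SE 0.22, adjusted p = 0.0011). In neurons NOTCH3 rose by 0.75 (SE 0.18, adjusted p = 0.0056) and in Progenitor 2 by 0.56 (SE 0.14, adjusted p = 0.0049). NOTCH2 was at 67.5 and 56.8 against 107 and 104 CPM in Progenitor 1 (0.93, SE 0.18, adjusted p = 2.52e-05) and higher by 0.52 in neurons (adjusted p = 0.038), while 0.27 in Progenitor 2 was not called (adjusted p = 0.30). NOTCH1 was not called in any class (0.33 in neurons, 0.46 in Progenitor 1 and 0.13 in Progenitor 2, adjusted p of 0.19, 0.097 and 0.72). DLL1 and DLL3 were higher in neurons of replicate 2, by 0.42 (adjusted p = 0.027) and 0.73 (adjusted p = 0.0019). The replicates did not overlap in any of the 10 called comparisons. Those were picked by a call on the same values, so the separation adds no support. How often it occurs over all genes was not counted. The targets did not follow. HES5 lay between -0.05 and 0.21 in the 3 classes, and HES1 at 0.21 in neurons, -0.51 in Progenitor 1 (SE 0.22, adjusted p = 0.098) and -0.24 in Progenitor 2, with no call.

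In Progenitor 1 rebuilt from joint clusters the 3 members were called even without a block, where 3.2% of all genes were called: NOTCH3 at 1.10 (adjusted p = 0.028), JAG1 at 1.02 (adjusted p = 0.035) and NOTCH2 at 0.99 (adjusted p = 0.027). With joint classes and the block all 3 kept their calls in Progenitor 1 (adjusted p of 0.0062 to 0.0093). Under the same fit DLL3 and JAG1 kept their calls in neurons, and NOTCH2, NOTCH3 and DLL1 did not there, nor did NOTCH3 and JAG1 in Progenitor 2 (adjusted p of 0.054 and 0.064). Mesenchymal markers and nuclei moved with the replicate. There were 40 and 33 mesenchymal nuclei in replicate 1 and 408 and 422 in replicate 2, and the 13 mesenchymal markers summed to 152 and 164 CPM against 200 and 230.0 CPM in neurons, and to 169 and 190.0 CPM against 223 and 304 CPM in Progenitor 1. In Progenitor 2 they summed to 281 and 348 CPM against 365 and 423 CPM. In the blocked fit 6 were higher in replicate 2 in each of the 3 classes and 0 lower, with COL3A1 at 2.42, 2.68 and 3.05. Over all genes that fit called 9.49% in neurons, 14.6% in Progenitor 1 and 4.81% in Progenitor 2. None of the 13 was at 0 in neurons or Progenitor 2, and at most 2 in a sample of Progenitor 1. NOTCH2, NOTCH3 and JAG1 are each high in Mesenchymal, and so is HES1, which was not called higher in any of the 3 classes. HEY2, most specific to Mesenchymal, was at 0.317 and 0.178 CPM in neurons of replicate 1 and 0.271 and 0.457 CPM in replicate 2. These HEY2 values rest on 3 to 6 UMIs a sample, and in Progenitor 1 HEY2 had 11 UMIs in all. What part mesenchymal RNA has in the differences between replicates was not tested. Other pathway genes were called in both directions. In Progenitor 1, 11 of 43 pathway genes were higher in replicate 2, among them RBPJ (0.67), MAML3 (0.94), the receptor protease ADAM10 (0.65) and LFNG (0.86), and 2 were lower (MIB2 and DLK1), with a list median of 0.06 beside -0.03 over all genes. In neurons 8 of 46 were higher and 2 lower, and in Progenitor 2, 2 of 45 were higher and 2 lower.

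**Figure D3:**
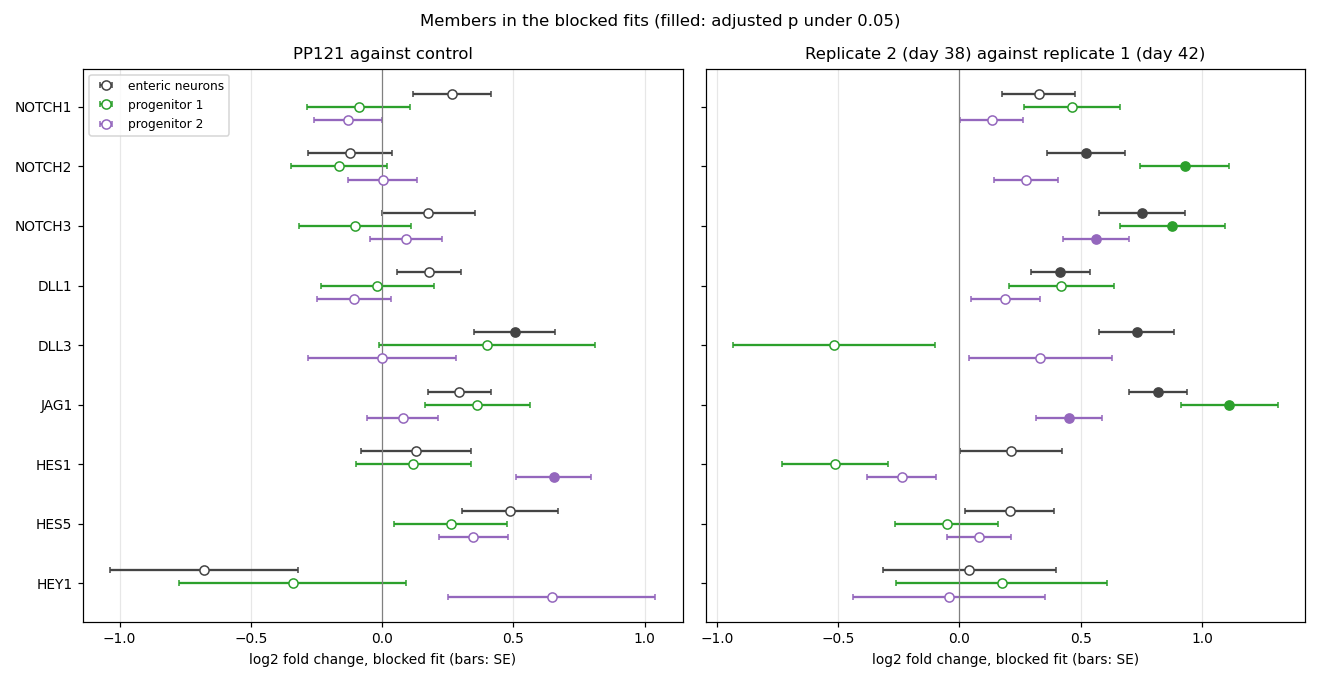
Log2 fold changes (horizontal axis, bars are standard errors) of the 9 members tested, for PP121 against control with the replicate as a block (left) and for replicate 2 against replicate 1 with treatment as a block (right), in neurons (grey), Progenitor 1 (green) and Progenitor 2 (purple); filled points have an adjusted p under 0.05. HES1 in Progenitor 2 and DLL3 in neurons are the 2 filled points at left, and JAG1 and NOTCH3 are filled in all 3 classes at right.

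The last comparison set progenitor nuclei with a Delta ligand UMI against those without one. After thinning to 2000 UMIs, a DLL1 or DLL3 UMI was found in 157 of 1730, 128 of 1280, 181 of 2274 and 131 of 1349 progenitor nuclei (9.08%, 10%, 7.96% and 9.71%). DLL1 made up most of these, in 137, 117, 155 and 117 nuclei, and DLL3 was in 24, 13, 29 and 17. Both ligands were found together in only 2 to 4 nuclei per sample. Since 1 UMI decides, nuclei without one can still express the gene, and some with one may not. In Mesenchymal 1.45% of nuclei held a DLL1 and 1.00% a DLL3 UMI, the latter about the share in progenitors. Whether Mesenchymal nuclei express either gene is not known. Whole counts of the nuclei with and without a ligand UMI were summed per sample and compared with the sample as a block, and DLL1 and DLL3, which define the split, were left out.

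Nuclei with a ligand UMI were richer in neurogenic genes. HES6, a HES factor of committed neural precursors that acts against HES1, was at 108, 84.6, 40.1 and 74.0 CPM with and 30.2, 24.96, 14.0 and 41.8 CPM without (log2 fold change 1.48, SE 0.15, adjusted p = 1.19e-06). HES6 was higher in 4 of 4 samples, although the values with and without overlapped between samples (40.1 against 41.8 CPM). SOX11 (0.58), SOX4 (0.57), DCX (0.51) and ELAVL3 (0.36) were higher as well, so that 4 of 10 neurogenic genes tested rose and 0 fell, where 0.766% of all 18418 genes were called. HES6 was the 1 called of 47 pathway genes. The call of ELAVL3 was lost without any 1 of the 4 samples (adjusted p of 0.058 to 0.16), and that of DCX without control replicate 2 (adjusted p = 0.12).

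No member was called in this split. JAG1 came closest and was higher in 4 of 4 samples, at 88.9, 97.1, 67.4 and 113 CPM with and 60.3, 67.6, 50.8 and 97.7 CPM without (0.40, SE 0.11, adjusted p = 0.096). The other members tested, HES1, HES5, HEY1 and the 3 receptors, lay between -0.15 (NOTCH2) and 0.20 (HES1) with a smallest p of 0.115 (edgeR). HES5 in nuclei with a ligand UMI was thus not detectably lower, at 66.7, 52.2, 92.0 and 95.9 CPM against 57.7, 61.2, 72.7 and 68.5 CPM without. Within Progenitor 1 alone HES5 was at 0.67 (SE 0.21, adjusted p = 0.40) and within Progenitor 2 at -0.02 (SE 0.15). HES6 was called within Progenitor 1 as well and within Progenitor 2 (1.42). SOX11, SOX4 and DCX were called within Progenitor 2 (0.54, 0.60 and 0.61) and not within Progenitor 1 (0.52, 0.47 and 0.19, adjusted p of 0.30, 0.22 and 0.86), and ELAVL3 in neither (adjusted p of 0.44 and 0.25). Median depth was 5893, 6209, 4898 and 5146 UMIs with and 6483, 6137, 5532 and 5914.5 UMIs without a ligand UMI, and the G1 share was higher with a ligand UMI in 4 of 4 samples (47.8%, 43.8%, 37.6% and 45.0% against 42.3%, 40.7%, 35.5% and 36.9%). The part of phase in these differences was not tested. The split was not rerun with joint classes. Joint clusters assigned to neurons held 313 and 26 of the deposited Progenitor 2 nuclei and 144 and 6 of Progenitor 1. What part such nuclei have in these differences was not tested either.

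**Figure D4:**
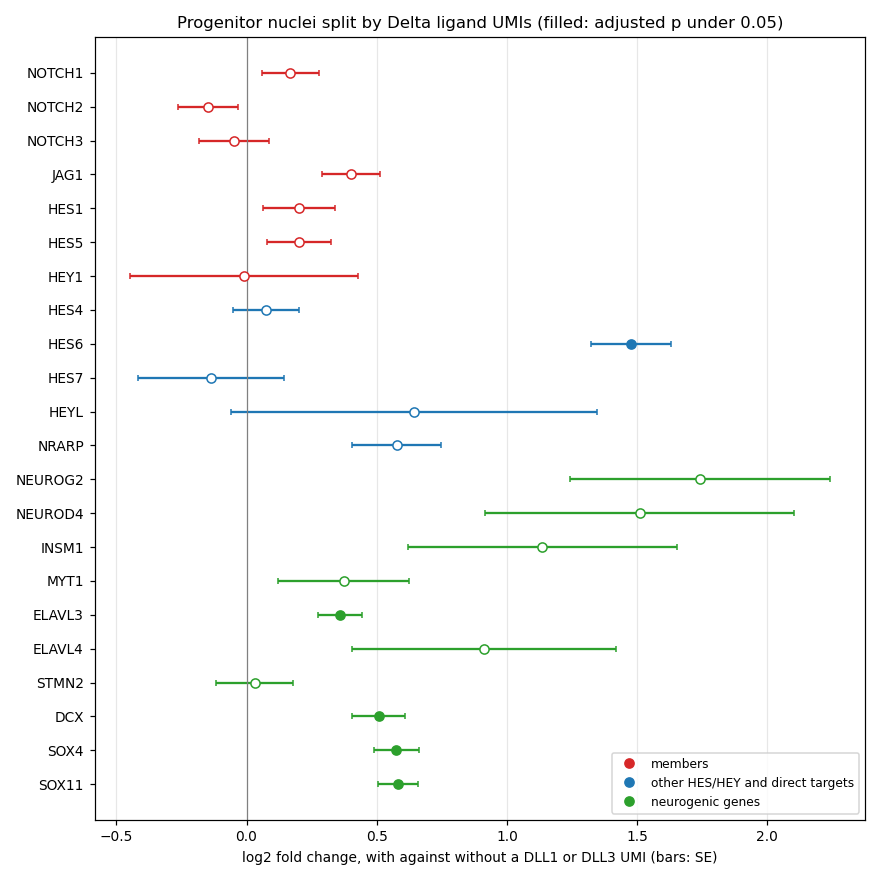
Log2 fold changes (horizontal axis, bars are standard errors) between progenitor nuclei with and without a DLL1 or DLL3 UMI, for the 7 members tested (red), other HES/HEY and direct targets (blue) and neurogenic genes (green); filled points have an adjusted p under 0.05. All 7 members are open points, whereas HES6 (1.48), SOX4, SOX11, DCX and ELAVL3 are filled and to the right of 0.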

How the data were processed

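Nuclei of 4 stage 1 ganglioid samples were profiled by 10x Genomics 3′ snRNA-seq. The deposited values are counts of UMIs per gene and nucleus made by the authors, with a table giving class, phase and time point per nucleus. The labels name Cell Ranger and Seurat 4.0.4 with GRCh38, whereas the study's methods name kallisto and bustools, so the counter behind the counts is uncertain. The same table holds, as deposited by the authors, the percent of each nucleus' UMIs from mitochondrial and ribosomal genes, which was not tested. Samples were grouped by GEO's labels. The annotation's own sample column names the controls differently and was not used. Nuclei the authors marked as filtered were left out.

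Counts were summed per sample and class (and phase, or ligand status) and tested with edgeR 4.0.16 (quasi-likelihood, TMM, filterByExpr, two-sided, Benjamini-Hochberg over all genes, threshold 0.05) in R 4.3.3. A call means an adjusted p under 0.05. The fits of PP121 and of replicate had no block. Blocked fits, DESeq2 1.42.0, other filters, leaving out each sample and joint classes (scanpy 1.11.5, Leiden at resolution 0.2 on 18 components) were alternatives. Same-numbered replicates share a dated day, and their deviations from the group means correlated at 0.42 in neurons, 0.43 in Progenitor 1 and 0.28 in Progenitor 2 across genes. P-values for PP121 and replicate rest on 2 samples per group, and those for phase and ligand status, fitted with the sample as a block, on 4 samples. Scripts were tested on simulated data. Shares used nuclei thinned to 2000 UMIs with exact Clopper-Pearson 95% intervals. Scrublet marked at most 1 nucleus per sample and was taken not to have worked, so doublets were not removed. Pairs of libraries shared between 0 and 8 cell barcodes.

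The members and lists were chosen with earlier results of these data known. Named genes are all 10 members, list genes called in a comparison, and the 3 genes closest to each member by correlation. Some genes of the neurogenic list are not reported here, and its counts leave them out.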

Additional observations from a re-analysis of the deposited data

Results flagged for a closer look

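For 2 members the difference between replicates ran in opposite directions in 2 classes, in both treatments. The share of all genes that do so was not counted, so this is not read as particular to the members. DLL3 in replicate 2 minus replicate 1 was 4.65 CPM (control) and 13.6 CPM (PP121) in neurons and -2.81 and -2.68 CPM in Progenitor 1. HES5 was 0.877 and 1.22 CPM in neurons and -4.56 and -8.06 CPM in Progenitor 1. Neuronal HES5 and progenitor DLL3 were each detected in a share of nuclei whose interval overlaps that of Mesenchymal, and the fitted log2 change of HES5 between replicates was only 0.21 in neurons and -0.05 in Progenitor 1. Each class here has 2 differences, and the difference between classes was not tested.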

How the results depend on the processing

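Counts of called genes depended on the choices made. In the order neurons, Progenitor 1, Progenitor 2, PP121 against control gave 0 in each without a block, 87, 1 and 96 with DESeq2, 69, 81 and 768 without a filter on low counts, 3152, 593 and 1267 with the replicate block, and 1012, 103 and 967 with the block and joint classes, an alternative chosen after seeing the data. Replicate 2 against 1 gave 59, 436 and 60 with DESeq2, 158, 1261 and 415 without the filter, 2015, 2350 and 908 with treatment as a block, 1192, 1281 and 825 with that block and joint classes, and 557 with joint classes alone in Progenitor 1. G2M against G1 gave 695 with DESeq2 in Progenitor 1 and 2538 with joint classes in Progenitor 2. S against G1 in Progenitor 1 gave 161 without the filter and 358 with joint classes. Both interactions gave 16 without the filter. The ligand comparison gave 82 with DESeq2, 443 without the filter and 8 within Progenitor 1. Leaving out 1 sample at a time gave 0 to 1402, 6 to 349 and 0 to 1052 for PP121, 2 to 271, 0 to 999 and 0 to 48 for the replicates, 411 to 1024 and 1029 to 1422 for G2M, 26 to 63 and 399 to 608 for S, 0 to 0 for the interactions and 80 to 143 for the ligand split; the highest PP121 counts came without PP121 replicate 1. HES1 with PP121 in Progenitor 2 was also called without the filter (adjusted p = 0.018) and without PP121 replicate 2 (adjusted p = 0.037), and DLL3 in neurons without PP121 replicate 1 (0.98, adjusted p = 0.0076). Signs turned for NEUROD4 with PP121 in neurons without PP121 replicate 2 (-0.45, against 1.67 without PP121 replicate 1), for DCX with PP121 in Progenitor 1 under joint classes (-0.14) and with the block as well (-0.15), and for STMN2 in Progenitor 2 under joint classes (0.36 in G2M, 0.00087 in S). The cause of these changes was not tested. The replicate block changed no call of a member other than those given above. The planned removal of called doublets was not run, since almost none were called, and leaving out the 6% of nuclei with the highest doublet scores was added after seeing the data. With 2 samples a group, depth and replication limit low genes such as HEY1, HEY2 and DLL3 most.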
